A study of Mus musculus with 8 samples.

Results

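Genes of the aryl hydrocarbon receptor (AhR) pathway were examined in lung epithelium-enriched cells of mice exposed to cigarette smoke (CS). They were chosen by symbol from the 22756 genes counted in each library, and all 6 were found, Ahr, Arnt, Ahrr, Cyp1a1, Cyp1b1 and Tiparp. Ahr encodes a cytosolic receptor that binds planar aromatic compounds, among them the polycyclic aromatic hydrocarbons of tobacco smoke. Bound by ligand, it enters the nucleus, pairs with the protein encoded by Arnt and binds DNA elements that share the core GCGTG, from which target genes are transcribed. Cyp1a1 and Cyp1b1 encode P450 enzymes that oxidize aromatic hydrocarbons and are widely used as readouts of the receptor in the lung. Tiparp, an ADP-ribosyltransferase, and Ahrr, a repressor that competes for Arnt, are induced targets that in turn restrain the receptor.

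The RNA-Seq libraries were made from distal lung of adult mice, mostly of the C57BL/6 strain, after lavage, removal of the trachea and depletion of CD45+ cells. All groups carried an IRES-tauGFP reporter in Chrna7, the gene of the α7 nicotinic receptor, either with the receptor intact (α7G) or with the E260A substitution, which limits its calcium signaling (α7E260A:G). Each line was kept in room air (control) or given side-stream CS on 5 days per week for 4 months, and each of the 4 groups holds 1 male and 1 female library. The number of mice pooled in a library was not given in the sources used here, so the spread between libraries of a group is that between the sexes and may also be technical. Both alleles are knock-ins at the Chrna7 gene itself.

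Depth lay between 8020726 and 10944100 CDS counts per library. Chrna7 had 0 counts in 7 libraries and 4 in the male α7E260A:G control, so the genotype label was not checked by its level. Levels are given as RPM, reads per 1000000 counted in the library. The summed RPM of 6 general epithelial markers ranged from 395 to 1135, and those of 8 alveolar type 2 markers from 4760 to 30654. The labels describe the cells as nearly all epCAM+. Despite the depletion of CD45+ cells, 12 alveolar macrophage markers summed to 18400 to 60736 RPM, and no marker of the 9 lists was at 0 in all libraries. The libraries also differed in how a count depended on the length of the coding sequence (CDS), with slopes from -0.27 in the female to 0.38 in the male α7E260A:G control, in log2 per doubling of CDS length against the mean of the libraries. These α7E260A:G control libraries stood farthest apart, and values that changed most without one of them are also given without it.

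Windows around the transcription starts of 5 members were found in RefSeq for the GRCm38.p6 build, a later build than that of the counts, and are shown because the core bound by AhR and Arnt is what these genes would share at the DNA level. Ahr was not matched. All 5 windows, from 250 bases before to 50 bases after the start, held GCGTG on one strand or the other, as did 32.4% of the 32851 mouse windows of this length. The extended form TNGCGTG was found in 1 of the 5, Ahrr, and in 5.07% of all windows. Below are the 250 bases before the start of each target gene, read 5′ to 3′ on the strand of the gene, with GCGTG or its reverse complement in capitals.
Cyp1a1: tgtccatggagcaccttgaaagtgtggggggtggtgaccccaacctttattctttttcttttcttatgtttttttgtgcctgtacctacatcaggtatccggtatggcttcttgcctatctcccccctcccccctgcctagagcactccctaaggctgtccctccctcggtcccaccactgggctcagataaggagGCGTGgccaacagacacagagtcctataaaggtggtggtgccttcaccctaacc
Cyp1b1: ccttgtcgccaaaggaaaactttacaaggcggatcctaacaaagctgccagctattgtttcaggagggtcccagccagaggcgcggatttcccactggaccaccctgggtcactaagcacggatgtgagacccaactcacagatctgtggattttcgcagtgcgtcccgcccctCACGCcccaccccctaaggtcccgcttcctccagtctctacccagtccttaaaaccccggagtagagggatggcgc
Tiparp: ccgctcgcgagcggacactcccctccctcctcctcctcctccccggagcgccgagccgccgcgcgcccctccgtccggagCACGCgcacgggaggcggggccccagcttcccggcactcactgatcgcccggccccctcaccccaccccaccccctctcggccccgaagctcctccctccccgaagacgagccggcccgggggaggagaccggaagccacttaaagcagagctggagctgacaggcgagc
Ahrr: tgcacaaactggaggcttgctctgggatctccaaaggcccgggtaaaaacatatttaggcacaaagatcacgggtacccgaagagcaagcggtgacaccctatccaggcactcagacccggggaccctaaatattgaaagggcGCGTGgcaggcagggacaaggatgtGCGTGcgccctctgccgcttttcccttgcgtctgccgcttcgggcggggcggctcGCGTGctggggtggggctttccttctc

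These stretches lie at chr9:57697363-57697612 on the plus strand for Cyp1a1, chr17:79715062-79715311 on the minus strand for Cyp1b1, chr3:65528197-65528446 on the plus strand for Tiparp and chr13:74292332-74292581 on the minus strand for Ahrr. Counted from the start site, the first base of the core lay at -54 in Cyp1a1, at -76 in Cyp1b1 and at -170 in Tiparp, on the opposite strand in the last 2. Ahrr held the core at -107, -82 and -27, and 3.91% of all windows held at least 3. Arnt, the partner of the receptor, held it once, at -29. The core is short, so a match is a description of the letters and not of binding, and the more distant elements upstream of Cyp1a1 lie outside these windows.

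In the build of the counts, mm9 with GENCODE M1, the receptor gene Ahr (ENSMUSG00000019256.10) lies at chr12:36182646-36219710 on the minus strand with a CDS of 2655 bases. Arnt (ENSMUSG00000015522.11) lies at chr3:95238310-95301162 on the plus strand with 2380 bases, and Ahrr (ENSMUSG00000021575.8) at chr13:74348566-74429779 on the minus strand with 2103. Cyp1a1 (ENSMUSG00000032315.5) lies at chr9:57545420-57551629 on the plus strand with 1572 bases, and Cyp1b1 (ENSMUSG00000024087.2) at chr17:80106234-80114401 on the minus strand with 1676. Tiparp (ENSMUSG00000034640.3) lies at chr3:65332332-65359067 on the plus strand with 1971. The values are reads counted on the exonic coding parts of these genes, without their untranslated ends. Of the CDS of Cyp1a1, 6.16% of all stretches of 50 bases are identical in its neighbor Cyp1a2, which had 0 counts in all 8 libraries.

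Per kb of CDS the members spanned a wide range of levels. Tiparp was the most abundant with 30.4 ± 6.8 RPM per kb (SD, n = 8 libraries), above 73.6% of the 17542 genes with at least 1 count. Arnt followed with 22.7 ± 6.7 RPM per kb, and the ranges of these neighbors overlapped. Ahr, at 6.81 ± 3.44 RPM per kb, was expressed at a lower level than Arnt in every library. Cyp1a1 at 5.43 ± 5.86 and Cyp1b1 at 2.80 ± 1.12 RPM per kb overlapped with Ahr and with each other, and among the 5 members that were tested Cyp1a1 had the widest spread relative to its mean. Ahrr was barely detected at 0.070 ± 0.099 RPM per kb. A filter on low counts left 14140 genes for testing, among them all members but Ahrr, and the mean count of at least 200 used in the study would have left only Arnt and Tiparp.

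**Figure D1:**
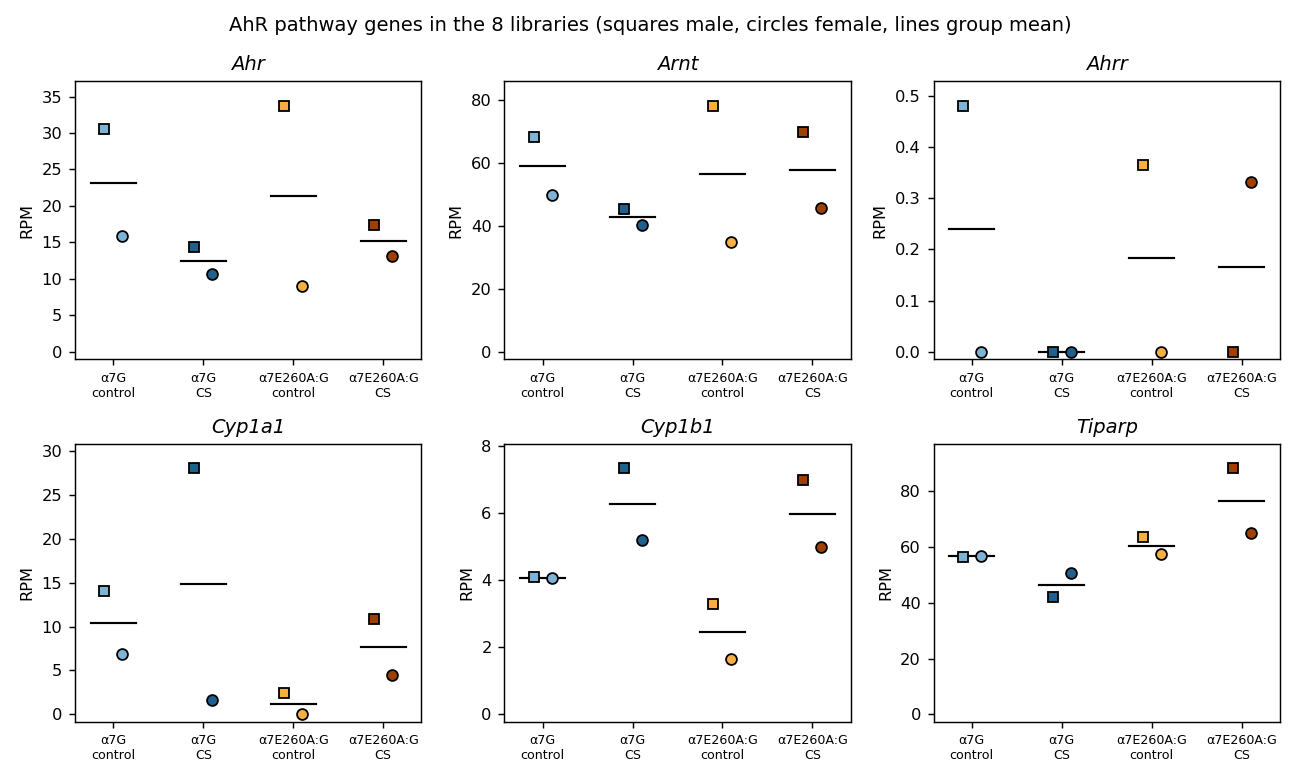
RPM (y axis, linear, one scale per gene) of the 6 AhR pathway genes in each of the 8 libraries by group, with males as squares, females as circles and the group mean as a line. Cyp1b1 is higher in the CS libraries (4.98 to 7.33 RPM) than in the controls (1.64 to 4.09 RPM), and Cyp1a1 runs from 0 to 28.0 RPM.

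Of the enzymes, Cyp1b1 was higher after CS in both genotypes and both sexes. In α7G it had 4.09 RPM in the male and 4.06 in the female control, and 7.33 and 5.19 RPM after CS. The α7E260A:G controls had 3.29 and 1.64 RPM in the male and the female, and the CS libraries 6.98 and 4.98 RPM. All 4 CS libraries were thus above all 4 controls, with means of 6.12 ± 1.21 and 3.27 ± 1.14 RPM (SD, n = 4). An exact two-sided permutation test over the 70 arrangements of the libraries gave p = 0.0286, the smallest it can give, and 1.84% of all tested genes were likewise higher without overlap.

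The ratio of CS to control for Cyp1b1 was 1.54 in α7G and 2.42 in α7E260A:G. Within pairs of the same genotype and sex it was 1.79 (95% exact interval of the counts 1.16 to 2.81) in α7G males and 1.28 (0.814 to 2.02) in α7G females. In α7E260A:G it was 2.12 (1.32 to 3.49) in males and 3.03 (1.72 to 5.56) in females. Such intervals cover counting error only, and the counts of 18 to 63 behind them are low. In edgeR's quasi-likelihood test over both genotypes the log2 fold-change was 1.00 with an SE of 0.30, and the adjusted p was 0.653, so Cyp1b1 did not pass the threshold of 0.05. This test called 0 of the 14140 genes (0.0%), while 1067 (7.55%) had an unadjusted p under 0.05 and DESeq2 called 63. Cyp1b1 had an unadjusted p of 0.0114, as small as or smaller than which were those of 236 genes. Its log2 fold-change stayed between 0.85 and 1.18 in 15 alternative fits, with adjusted p from 0.141 to 1.00.

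For the 9 lists of cell type markers, the median log2 fold-change with CS lay between -0.01 and 0.49, the last for club cells (4 of 6 above 0). It was 0.43 for alveolar type 1 (5 of 6 above 0) and 0.38 for general epithelial markers (4 of 6), both above those of the next 2 lists. The 10 mesenchymal markers summed to 1195 to 4099 RPM in controls and 2141 to 3365 RPM after CS, 8 of 10 had a log2 fold-change above 0, and their median was 0.22. The 12 alveolar macrophage markers summed to 18400 to 58711 and 23883 to 60736 RPM, with 9 of 12 above 0 and a median of 0.26. None of these markers was at 0 in all libraries or passed the test, and their part in the difference in Cyp1b1 was not tested. More cells of a type and more RNA per cell cannot be told apart in these libraries.

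Cyp1a1, the other enzyme, varied widely between libraries and did not separate the groups. In α7G it had 14.1 RPM in the male and 6.83 in the female control, against 28.0 RPM in the male and 1.58 in the female after CS. In α7E260A:G it had 2.44 RPM in the male control and 0 counts in the female control, and 10.8 and 4.54 RPM after CS. Its level was thus higher after CS in 3 of 4 pairs and lower in the α7G females, and CS and control libraries overlapped. Mean values were 11.3 ± 11.8 RPM after CS and 5.84 ± 6.18 RPM in controls (SD, n = 4; exact permutation p = 0.543).

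The pairs of Cyp1a1 differed beyond counting error. The ratio of CS to control was 1.99 (1.59 to 2.51) in α7G males and 0.231 (0.120 to 0.417) in α7G females. In α7E260A:G males it was 4.45 (2.71 to 7.64). The α7E260A:G females had 41 counts after CS against 0, or 16.5-fold when the control is set to the floor of 3 counts per library. The exact interval of this last pair starts at 12.9. In edgeR the log2 fold-change was 1.68 with an SE of 0.97 and an adjusted p of 0.676. It was 0.64 (SE 1.26) in α7G and 2.72 (SE 1.47) in α7E260A:G, and the difference between the genotypes of 2.09 had an SE of 1.92 and an adjusted p of 1.00 in edgeR. The value in α7G was -0.14 with sex as a replicate block and -2.58 without the male CS library. Without the male or the female α7E260A:G control, the value in α7E260A:G was 9.07 or 1.74 and the difference 8.44 or 1.12, with no call in any of these fits. Without the male α7G CS library the fold-change over both genotypes was 0.07 on the log2 scale, and without the male α7E260A:G control it was 4.85, since the only α7E260A:G control left had no count.

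**Figure D2:**
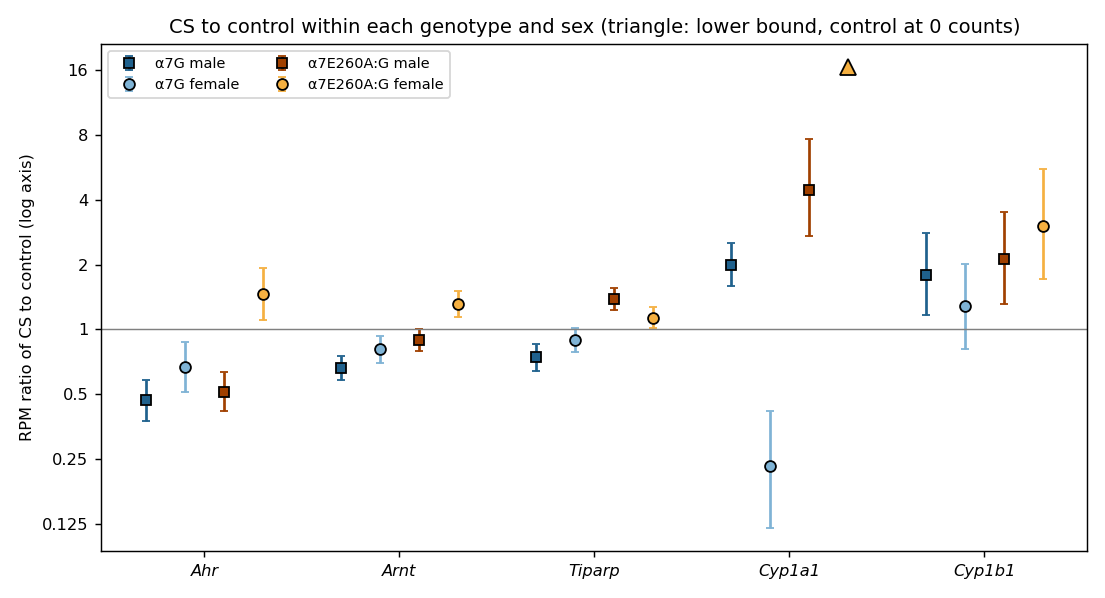
Ratio of CS to control RPM (y axis, log scale) for 5 members in the 4 pairs of the same genotype and sex, with bars for the 95% exact interval of the counts. A triangle marks the ratio against a floor of 3 counts where the control had 0 counts, and the exact interval there starts at 12.9. Cyp1b1 is above 1 in 4 of 4 pairs, Cyp1a1 lies between 0.231 and 16.5 (the triangle), and Tiparp is below 1 in both α7G pairs and above 1 in both α7E260A:G pairs.

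Among the genes that restrain the receptor, Tiparp did not separate CS from control but was higher in α7E260A:G than in α7G. In α7G it had 56.5 RPM in the male and 56.7 in the female control, and 41.9 and 50.8 RPM after CS. The α7E260A:G male and female controls had 63.6 and 57.4 RPM, and their CS counterparts 88.1 and 65.0 RPM. All 4 α7E260A:G libraries were above all 4 α7G libraries, though the female α7E260A:G control exceeded the female α7G control by a small margin. The means were 68.5 ± 13.5 and 51.5 ± 6.95 RPM (SD, n = 4; exact permutation p = 0.0286), and 2.33% of tested genes were likewise higher in α7E260A:G without overlap.

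In edgeR the log2 fold-change of Tiparp between the genotypes was 0.49 with an SE of 0.16 and an adjusted p of 0.289. This comparison called 13 genes (0.0919% of those tested, with 11.2% at an unadjusted p under 0.05) and 0 of the 5 members tested. In 16 alternative fits the fold-change lay between 0.41 and 0.59 and the adjusted p between 0.0965 and 0.823. After CS alone the difference was 0.69 (SE 0.23, adjusted p = 0.532 in edgeR) and in controls 0.28 (SE 0.23, adjusted p = 0.913). Without the female α7E260A:G control the latter was 0.16, and with the length dependence removed it was 0.59. The test after CS called 2 genes (0.0141%, with 7.77% at an unadjusted p under 0.05) and that in controls 1 gene (0.00707%, with 6.29%).

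Levels of alveolar macrophage markers differed with the genotype in the direction of Tiparp. All 12 were higher in α7E260A:G, with a median log2 fold-change of 0.85, and their sums of 33533 to 60736 RPM in α7E260A:G did not overlap those of 18400 to 29007 RPM in α7G. Chi3l3 and Lyz2 gave most of these sums, with 338776 and 226799 counts in the female α7E260A:G control. None of the 12 was at 0 in all libraries. Conversely, 8 of 8 alveolar type 2 markers had a lower level in α7E260A:G (median -1.19), where their sums were 4760 to 14823 RPM against 20096 to 30654 RPM in α7G. Of the mesenchymal markers, 8 of 10 were higher in α7E260A:G (median 0.48), and the other marker lists had medians below 0. None of these markers passed the test, and their part in the difference in Tiparp was not tested.

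With CS the ratios of Tiparp lay on opposite sides of 1 in the genotypes. The ratio of CS to control was 0.741 (95% exact interval of the counts 0.644 to 0.852) in α7G males and 0.896 (0.788 to 1.02) in α7G females. It was 1.39 (1.24 to 1.55) in α7E260A:G males and 1.13 (1.01 to 1.27) in α7E260A:G females. By RPM, both sexes were thus lower in α7G and higher in α7E260A:G, as were 10.2% of tested genes. Scaled by TMM, the female ratios were close to 1, with 0.970 in α7G and 1.04 in α7E260A:G. The difference between these responses was 0.41 on the log2 scale (SE 0.33, adjusted p = 1.00 in edgeR's test, which called 0 genes, 0.0%, with 310 or 2.19% at an unadjusted p under 0.05 and 7 called by DESeq2), and it was -0.00144 when the dependence on CDS length was removed. With that dependence removed, the CS log2 fold-change of Tiparp was 0.12 in each genotype. Over both genotypes Tiparp had 61.5 ± 20.2 RPM after CS and 58.5 ± 3.39 RPM in controls (SD, n = 4; exact permutation p = 0.8).

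Ahrr, the repressor, could not be compared at this depth. It had 4 counts in the male α7G control, 3 in the male α7E260A:G control, 3 in the female α7E260A:G CS library and 0 in the other 5. In 5 libraries it was thus below 3 counts, or 0.274 to 0.374 RPM depending on depth. No group was separated from another by these counts.

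**Figure D3:**
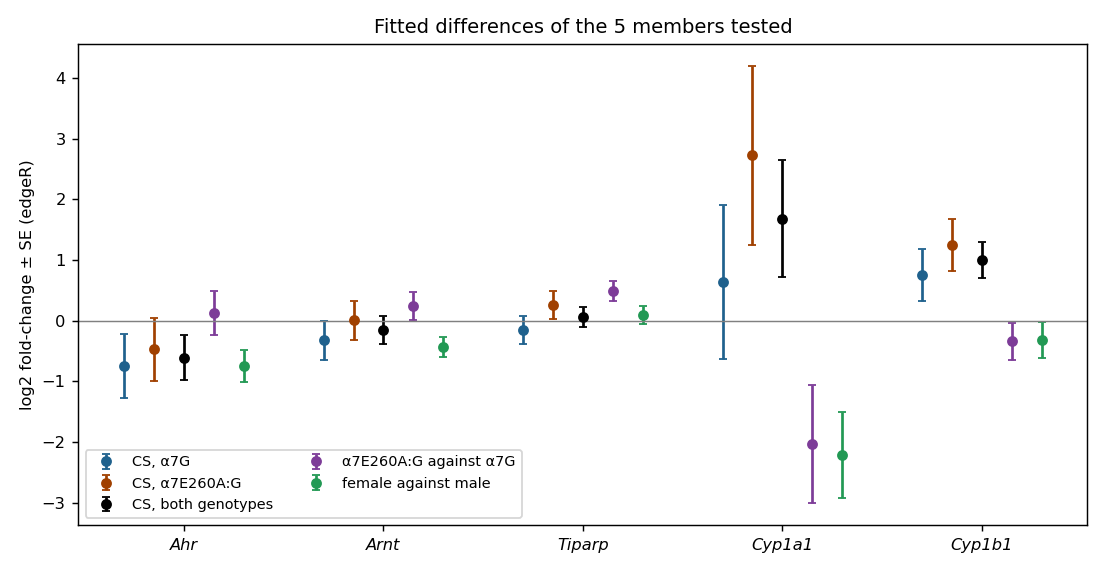
Log2 fold-changes (y axis) with SE bars from edgeR for the 5 members tested, for CS in each genotype and over both, for α7E260A:G against α7G and for female against male. Cyp1b1 has 1.00 ± 0.30 for CS over both genotypes, Tiparp 0.49 ± 0.16 for the genotype and Cyp1a1 the widest bars, and no adjusted p was under 0.05.

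For the receptor itself, the highest levels were in male controls. Ahr had 30.6 RPM in the male and 15.8 in the female α7G control, and 14.3 and 10.6 RPM after CS. It had 33.8 RPM in the male and 9.05 in the female α7E260A:G control, the highest and the lowest of the 8 libraries, and 17.3 and 13.2 RPM after CS. Its level was lower after CS in 3 of 4 pairs and higher in α7E260A:G females, with means of 13.9 ± 2.79 RPM after CS and 22.3 ± 11.8 RPM in controls (SD, n = 4; exact permutation p = 0.314). The log2 fold-change of -0.61 (SE 0.37, adjusted p = 0.681 in edgeR) was -0.31 with the length dependence removed and -0.12 without the male α7E260A:G control.

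Arnt, the DNA-binding partner, had 68.3 RPM in the male and 49.7 in the female α7G control, and 45.3 and 40.2 RPM after CS. In α7E260A:G it had 78.2 and 34.8 RPM in the male and female controls, and 69.9 and 45.7 RPM after CS. As for Ahr, 3 of 4 pairs were lower after CS and the α7E260A:G females were higher, with overlapping means of 50.3 ± 13.4 and 57.8 ± 19.3 RPM (SD, n = 4; exact permutation p = 0.6). The log2 fold-change of -0.16 (SE 0.23, adjusted p = 0.820 in edgeR) became 0.03 when the length dependence was removed. Between the genotypes Ahr and Arnt differed by 0.13 (SE 0.37) and 0.23 (SE 0.23) on the log2 scale, or by -0.36 and -0.00067 without the male α7E260A:G control.

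Ahr and Arnt followed each other and the length dependence of the libraries. Over the 8 libraries log2(RPM + 0.5) of Ahr and of Arnt had a Pearson r of 0.925 and a Spearman rho of 0.952, a description of values that share library, depth and a long CDS. The 4 libraries with a positive length slope, both male controls, the male α7E260A:G CS and the female α7G control library, held the 4 highest levels of Ahr (15.8 to 33.8 RPM against 9.05 to 14.3) and of Arnt (49.7 to 78.2 RPM against 34.8 to 45.7). The same 4 libraries were above the other 4 without overlap for 22.1% of all tested genes. Cyp1b1, with a shorter CDS, had 3.29 to 6.98 RPM in these 4 libraries and 1.64 to 7.33 in the other 4.

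**Figure D4:**
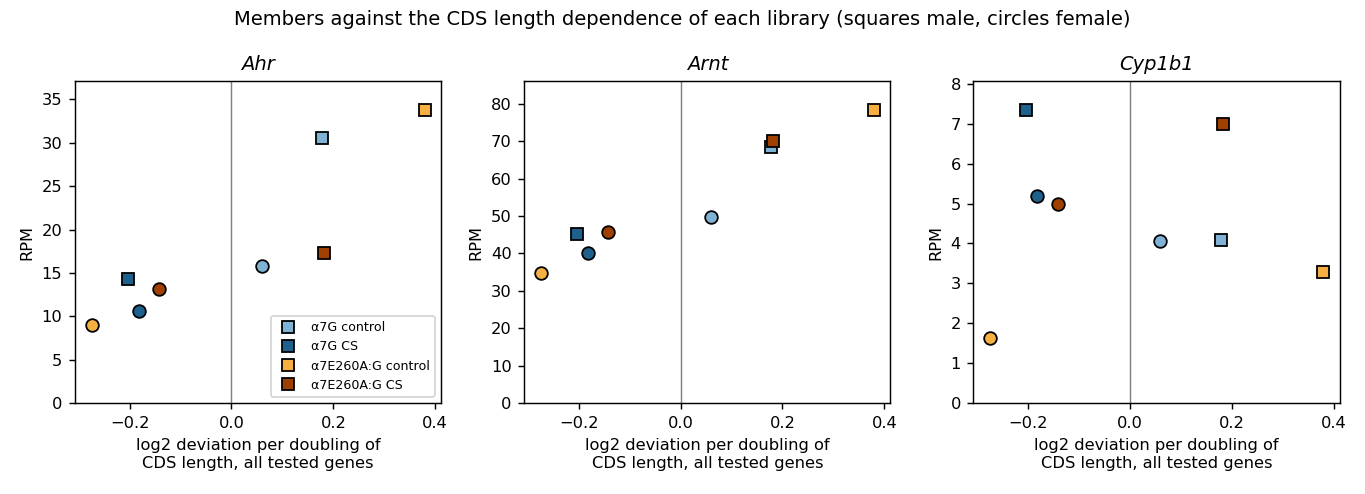
RPM (y axis) of Ahr, Arnt and Cyp1b1 in each library against the library's dependence on CDS length (x axis, log2 deviation per doubling of length over all tested genes), with colors for the 4 groups, squares for males and circles for females. Ahr and Arnt lie higher in the 4 libraries with a positive slope, and Cyp1b1 overlaps between the 2 sides.

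CS within each genotype gave no call among the members. In α7G the test called 0 genes (0.0%), with 945 (6.68%) at an unadjusted p under 0.05 and 18 called by DESeq2, and in α7E260A:G it called 1 gene (0.00707%, with 3.08% at an unadjusted p under 0.05). The log2 fold-change of Cyp1b1 was 0.75 (SE 0.42, adjusted p = 0.645 in edgeR) in α7G and 1.24 (SE 0.43, adjusted p = 1.00) in α7E260A:G. Its difference between the genotypes, 0.49 with an SE of 0.60, was within its error. The comparison over both genotypes uses the same libraries as these.

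Between the genotypes the enzymes were at a lower mean level in α7E260A:G. Cyp1a1 had 4.45 ± 4.65 RPM in α7E260A:G and 12.6 ± 11.5 RPM in α7G (SD, n = 4; exact permutation p = 0.229), with a log2 fold-change of -2.03 (SE 0.98, adjusted p = 0.517 in edgeR). That value was -0.43 without the male α7G CS library and -5.20 without the male α7E260A:G control. Cyp1b1 had 4.22 ± 2.29 and 5.17 ± 1.54 RPM (exact permutation p = 0.514) and was lower in 4 of 4 pairs, as were 15.3% of tested genes, but in 3 of 4 pairs when scaled by TMM. Summed levels of the alveolar type 2, alveolar type 1 and general epithelial markers were each lower in every α7E260A:G library than in any α7G library. Their median log2 fold-changes were -1.19, -0.61 and -0.84. Medians were also below 0 for club (-0.60), endothelial (-0.49), lymphocyte (-0.47) and ciliated (-0.36) markers, and above 0 for alveolar macrophage (0.85) and mesenchymal (0.48) ones. The part of these markers in the enzyme values was not tested.

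Between the sexes, the receptor, its partner and both enzymes had lower levels in the female library in 4 of 4 groups, as did 20.3% of tested genes. Ahr had 12.2 ± 2.96 RPM in females and 24.0 ± 9.60 RPM in males (SD, n = 4; exact permutation p = 0.0571), and Arnt 42.6 ± 6.51 and 65.4 ± 14.1 RPM (exact permutation p = 0.0857). Cyp1a1 had 3.24 ± 3.05 and 13.9 ± 10.7 RPM (exact permutation p = 0.0857). With sex beside the 4 groups in the model, the log2 fold-changes were -0.75 (SE 0.26) for Ahr, -0.43 (SE 0.16) for Arnt and -2.21 (SE 0.71) for Cyp1a1. Each had an adjusted p of 0.315 in edgeR, which called 3 genes (0.0212%) and had 2237 (15.8%) at an unadjusted p under 0.05. With the length dependence removed these values were -0.32 for Ahr, -0.04 for Arnt and -1.996 for Cyp1a1. DESeq2 gave Cyp1a1 an unadjusted p of 9.20e-05 between the sexes and no adjusted p. Cyp1b1 differed by -0.32 (SE 0.30) and Tiparp by 0.09 (SE 0.15), or by -0.08 and 0.41 with the length dependence removed, and the 4 of 4 for Cyp1b1 was 3 of 4 when scaled by TMM. Without either α7E260A:G control the value of Ahr was -0.49. Of the markers, 9 of 10 endothelial ones had lower levels in females (median -0.43), where they summed to 371 to 896 RPM against 891 to 1017 RPM in males, and 7 of 10 mesenchymal ones (median -0.28). Higher in females were 6 of 6 club (median 0.43), 7 of 8 alveolar type 2, 5 of 6 alveolar type 1 and 5 of 6 general epithelial markers. So were 9 of 10 lymphocyte, 9 of 12 alveolar macrophage and 3 of 7 ciliated markers. Of all these markers 0 passed the test, and their part in the sex differences was not tested.

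Outside the 6 members, 17 other genes known as AhR targets were listed, and 14 of them were tested. None passed the threshold for CS over both genotypes, 13 had a log2 fold-change above 0 and 1 below, 5 had an unadjusted p under 0.05 (as had 7.55% of all tested genes), and the median was 0.59 against 0.01 over all tested genes. Between the genotypes 0 passed, 2 lay above 0 and 12 below, with a median of -0.49 against 0.03 over all tested genes. Gsta1 and Gsta2 share much of their coding sequence with each other and with near copies, and Ugt1a6a with Ugt1a6b and others. The 14 values are therefore not all separate measurements. Cyp1a2, Ereg and Ido1 were below the filter. Several of these genes also respond to NRF2, the oxidant-sensing factor encoded by Nfe2l2, and the marker sums given above differed between the same libraries; their part was not tested.

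Nqo1, a quinone reductase induced through AhR and NRF2, had the largest CS difference of the 14 apart from Gsta1. In α7G it had 7.10 RPM in the male and 8.01 in the female control, and 63.5 and 14.1 RPM after CS. The values of the α7E260A:G male and female were 5.60 and 3.84 RPM in controls, and 36.0 and 32.0 RPM after CS. All CS libraries were above all controls, as for 1.84% of tested genes, with means of 36.4 ± 20.4 and 6.14 ± 1.82 RPM (SD, n = 4; exact permutation p = 0.0286). The log2 fold-change was 2.64 with an SE of 0.44 and an adjusted p of 0.555 in edgeR. DESeq2 called it with an adjusted p of 4.31e-06, as did 2 of the other 14 alternatives.

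Gsta1, a glutathione transferase, was counted after CS and in no control, and so was among the 1.84% of tested genes higher without overlap. It had 119 counts in the male and 6 in the female α7G CS library, 2 and 33 in those of α7E260A:G, and 0 in all 4 controls. Against a floor of 3 counts over the control libraries together this was 56.9-fold higher, with 160 counts in all, of which the male α7G CS library gave 119. Of its CDS, 92.9% of stretches of 50 bases are shared with Gsta2 and other near copies, so its count is uncertain. By edgeR its adjusted p was 0.653.

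Aldh3a1, an aldehyde dehydrogenase classed with the AhR battery, was named after its values were seen, as was Ugt1a6a. Aldh3a1 had 111 RPM in the male and 93.4 in the female α7G control, 329 and 124 RPM after CS, 28.9 and 19.0 RPM in the α7E260A:G controls and 57.5 and 112 RPM after CS. It was higher after CS in 4 of 4 pairs (as were 11.2% of tested genes) and lower in α7E260A:G in 4 of 4 (as were 15.3%). The groups overlapped in both comparisons. The log2 fold-change was 1.55 (SE 0.36, adjusted p = 0.637 in edgeR) for CS and -1.66 (SE 0.37, adjusted p = 0.131) for the genotype, and DESeq2 called both. Ugt1a6a, a glucuronosyltransferase gene that shares 75.9% of its stretches of 50 bases with others, had 0.72 (SE 0.20, adjusted p = 0.650 in edgeR) for CS and -0.68 (SE 0.20, adjusted p = 0.233) for the genotype.

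**Figure D5:**
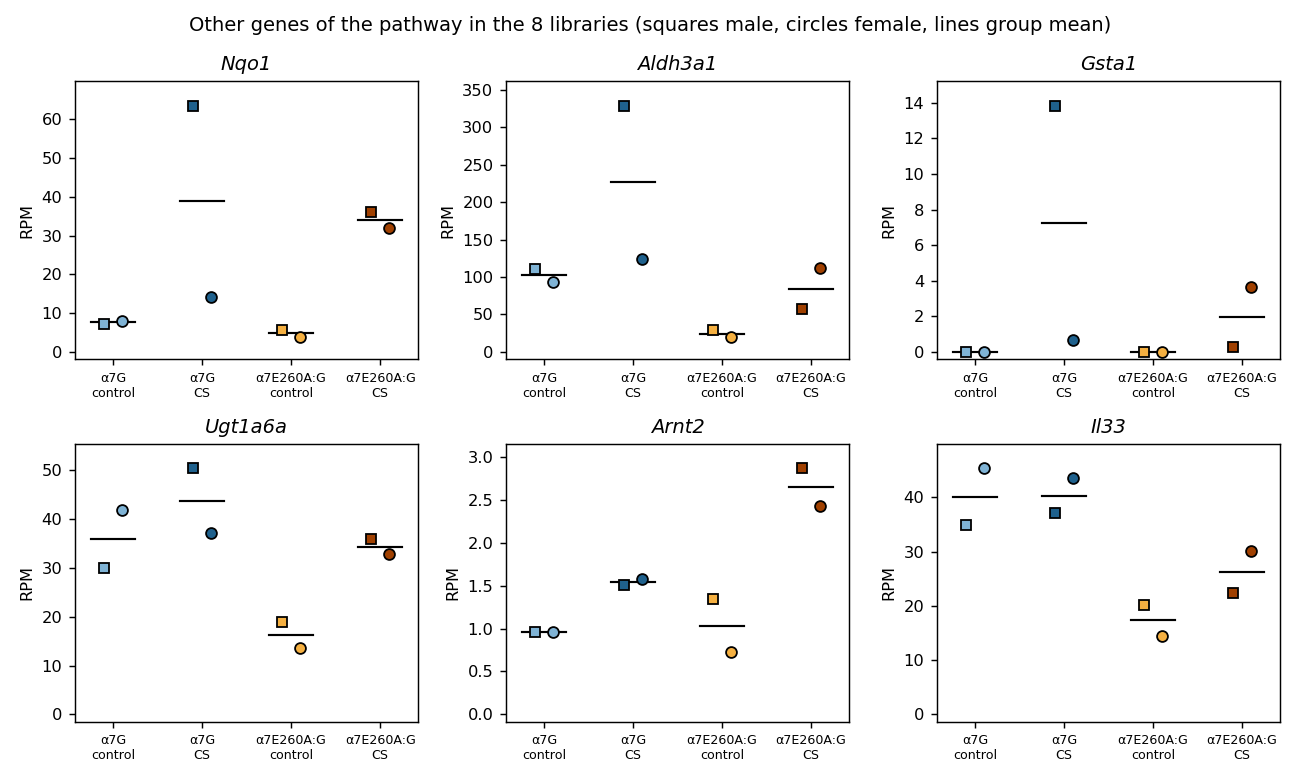
RPM (y axis, linear, one scale per gene) of Nqo1, Aldh3a1, Gsta1, Ugt1a6a, Arnt2 and Il33 in each of the 8 libraries by group, with males as squares, females as circles and the group mean as a line. Nqo1 is at 14.1 to 63.5 RPM after CS against 3.84 to 8.01 in controls, and Gsta1 is at 0 in all controls.

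Il33, an epithelial alarmin, separated the genotypes rather than the exposures. It had 34.9 RPM in the male and 45.4 in the female α7G control and 37.1 and 43.5 RPM after CS. In α7E260A:G it had 20.2 and 14.4 RPM in the male and female controls and 22.4 and 30.1 RPM after CS, below all α7G libraries (exact permutation p = 0.0286; 5.46% of tested genes were lower without overlap). The log2 fold-change was -0.83 (SE 0.22) and the adjusted p 0.184 in edgeR. The summed alveolar type 2, alveolar type 1 and general epithelial markers, lower in each α7E260A:G library than in any α7G library, were named above. Their part was not tested.

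Of 12 genes for the receptor complex and its coregulators, 0 passed the threshold for CS, with 4 above 0 and 8 below and a median of -0.27. Between the genotypes 9 lay above 0 and 3 below, with a median of 0.20, and 0 passed. Nrip1, a corepressor named after its values were seen, differed by 0.94 (SE 0.31, adjusted p = 0.280 in edgeR) and passed with the length offset and replicate block (adjusted p = 0.0279) and without the female α7E260A:G control (0.0257). Arnt2, a relative of Arnt, had 0.962 and 0.961 RPM in the male and female α7G controls and 1.51 and 1.58 RPM after CS. It had 1.34 and 0.731 RPM in the α7E260A:G controls and 2.87 and 2.43 RPM after CS. All CS libraries were thus above all controls (exact permutation p = 0.0286), and 1.84% of tested genes were likewise higher without overlap. With 8 to 23 counts per library the log2 fold-change of Arnt2, 1.06, had an SE of 0.42 and an adjusted p of 0.653 in edgeR. Hsp90ab1, the chaperone that holds the unbound receptor, differed by -0.22 (SE 0.20) with CS and was named after its values were seen.

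The genes most like each member over the 8 libraries, by Pearson r of log2(RPM + 0.5) among the tested genes, were Fam123b for Ahr (r = 0.977), Leng8 for Arnt (0.995), Nup93 for Cyp1a1 (0.990), Eif3j for Cyp1b1 (0.965) and Trpm1 for Tiparp (0.977). Next came Brd8 and Ap1b1 for Ahr, Dnajc14 and Atp2c1 for Arnt, Zfp101 and Rsrc1 for Cyp1a1, Fam100a and Fbxl15 for Cyp1b1, and Egfl8 and Ly75 for Tiparp. These are the highest of 14140 values over 8 libraries and are given as a description. Eif3j had at most 2.09 RPM and Trpm1 at most 5.36 RPM. Among the members, Cyp1a1 and Cyp1b1 had an r of 0.810, and Cyp1b1 and Ahr an r of 0.0976.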

How the data were processed

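The authors depleted CD45+ cells from lavaged distal lung, prepared stranded polyA libraries (TruSeq), aligned reads with STAR to mm9 (NCBIM37) and counted reads on CDS with HTSeq and GENCODE M1, with versions and the strand setting not given in the sources used here. The deposited values are raw counts of 22756 genes per library, all matched by ID and symbol in GENCODE M1. Depth was 8020726 to 10944100 counts, and intervals and floors cover counting error only. RPM are counts scaled to 1000000 per library. edgeR 4.0.16 (R 4.3.3) fitted the 4 groups with TMM scaling and filterByExpr (14140 genes), glmQLFTest and Benjamini-Hochberg adjustment at 0.05 over all tested genes, with sex as a term only for female against male. Single genes were tested by exact two-sided permutation of 4 against 4 libraries (70 arrangements, Python 3.11.15, scipy 1.17.1). Arrangements within 4 matched pairs could not give a two-sided p below 0.125. RPM ratios average male and female. The edgeR step for CS over both genotypes was tested on simulated counts.

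Members and lists were chosen with earlier results of these data known. Of the lists, genes past the threshold and up to 4 per list whose libraries did not overlap, by largest fold-change, were named, with the 3 genes most like each member. Markers, complex and target lists are all reported as counts and medians, with no set test. Alternatives were DESeq2 1.42.0, library-size and upper-quartile scaling, the study's mean count of 200 (7189 genes), no filter (17542 genes), a CDS length offset (lowess, span 0.667), sex as a replicate block, fits of a comparison's own libraries, one sex alone and leaving out each library. Promoter windows came from RefSeq (GRCm38.p6).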

Additional observations from a re-analysis of the deposited data

Results flagged for a closer look

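With groups of 4 libraries, chance flags about 1 group in 20 for a library that stands apart. Ahrr stood apart at 0.332 RPM in the female α7E260A:G CS library among the CS libraries, and at 0.481 RPM in the male α7G control among the α7G libraries, where the others had 0 counts. These are 3 and 4 counts. Tiparp at 63.6 RPM in the male α7E260A:G control was the highest of the controls, which otherwise lay between 56.5 and 57.4 RPM. The CS response of Tiparp differed in direction between the genotypes in both sexes, by 0.414 on the log2 scale (edgeR adjusted p = 1.00), which does not pass the threshold. With the CDS length offset the response was 0.12 in each genotype.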

How the results depend on the processing

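No tested member with an adjusted p was called in the alternatives run, and Ahrr entered only the fit without a filter. Between the sexes DESeq2 gave no adjusted p for Cyp1a1 (unadjusted p = 9.20e-05) and Cyp1b1 (0.428), so no call could be made for these. Of the values recomputed, 773 kept direction and side of the threshold, 69 moved, 14 turned sign and 8 passed the threshold. The count of all genes called moved with the setting. Without a filter it was 1 for CS over both genotypes, 3 for CS in α7E260A:G, 69 for the genotypes, 11 in controls and 8 after CS. With a mean count of 200 these were 0 for CS in α7E260A:G, 6 for the genotypes and 1 after CS, and scaling by library size gave 0 for CS in α7E260A:G. With the CDS length offset it was 3 for CS, 2 for CS in α7E260A:G, 1 for the difference of the responses, 239 for the genotypes, 20 in controls, 19 after CS and 7 for sex. DESeq2 called 63 for CS, 18 in α7G, 34 in α7E260A:G, 7 for the difference, 507 for the genotypes, 105 in controls, 140 after CS and 49 for sex. Fits of the 4 libraries of a comparison gave 907 for CS in α7G, 0 in α7E260A:G and 42 for the genotypes after CS. In α7G both controls had a positive length slope (0.178 and 0.0602) and both CS libraries a negative one (-0.203 and -0.181). The part of the slopes in these 907 calls was not tested.

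The replicate block by sex gave 0 calls for CS in α7E260A:G, 43 for the genotypes, 2 in controls and 4 after CS. With the length offset, the replicate block gave 19 for CS, 12 in α7E260A:G, 1 for the difference, 602 for the genotypes, 52 in controls and 51 after CS. Female minus male differences correlated between groups with r from 0.00884 to 0.684. Pairs of groups with α7G CS had r of 0.0804, 0.00884 and 0.0288, and the others 0.362, 0.397 and 0.684. The study averaged the sexes, and sex was not taken as a pairing in the main fit.

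Leaving out 1 library gave 0 to 108 calls for CS, 0 to 143 in α7E260A:G, 0 to 97 for the difference, 1 to 666 for the genotypes, 1 to 260 in controls, 1 to 62 after CS and 2 to 6 for sex. The highest count came without the female α7E260A:G control for the genotypes (666) and without the male one for all others but sex. The sign turned for the difference in the Tiparp response with the length offset (-0.00144), for the genotype difference of Ahr on the log2 scale (exact permutation p = 1.0), and for the CS difference of Arnt, 0.0345 with the offset, 0.0349 with offset and replicate block, 0.0375 in females alone and -0.34 to 0.073 when 1 library was left out, the last without the male α7E260A:G control. It also turned for Cyp1a1 with CS in α7G (-0.141 with the replicate block, -1.86 in females alone, -2.58 to 1.54 when 1 library was left out), for Tiparp between the sexes (-0.0778 with library-size scaling) and between the genotypes for Ahr (-0.0441 in females alone, -0.363 to 0.412 when 1 library was left out) and Arnt (-0.000672 to 0.408). The causes were not tested. Nqo1 passed for CS with offset and replicate block and without the male α7E260A:G control, and Aldh3a1 for the genotype under the first and without either α7E260A:G control. Nrip1 passed for the genotype with offset and replicate block and without the female α7E260A:G control. Fitted on its own 4 libraries, CS in α7G also gave Ep300 (adjusted p = 0.0329), Ncoa2 (0.0359) and Nqo1 (0.0416). Over all alternatives, the CS log2 fold-change in α7G ran from -1.42 to -0.12 for Ep300 and from -1.37 to -0.39 for Ncoa2. For Nqo1 it ran from 1.02 to 3.18. Exposure went with the sign of the length slope in these 4 libraries, and the part of the slope was not tested. With DESeq2, Nqo1 passed for CS in each genotype, and Aldh3a1 for CS over both and for the genotype over both and in controls.

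At this depth Ahrr could not be compared, and the counts of Cyp1b1 limit its ratios to the intervals given. With 2 libraries per group, differences between groups and between the mice in them cannot be told apart further.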
